A study of Mus musculus with 6 samples.

Results

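The 10 genes described here encode proteins that carry Ca2+ out of the cell across the plasma membrane. They are the 4 plasma membrane calcium pumps (PMCA, Atp2b1 to Atp2b4), the 3 sodium-calcium exchangers (NCX, Slc8a1 to Slc8a3) and 3 potassium-dependent sodium-calcium exchangers (NCKX, Slc24a2 to Slc24a4). They were found by their symbols in the GENCODE M21 annotation of the mouse genome GRCm38 and are 10 of the 54838 genes counted. All 10 had enough counts to be tested, as did 19087 genes in all. RNAseq of polyA RNA was done on hippocampi of 6 females aged 7 months, 3 wild-type and 3 of the line FVB/NJ-Tg(ORAI1)Ibd, with 1 library per mouse. The Tg(ORAI1)Ibd mice carry the coding sequence of human ORAI1, the pore subunit of the store-operated calcium channel, in a Thy-1.2 cassette that drives expression in neurons, and the wild-type mice carry no transgene. The comparison asks whether the genes that remove Ca2+ from the cytosol were expressed at other levels where a Ca2+ entry channel was overexpressed.

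PMCA pumps use ATP to expel Ca2+ with high affinity, form a phosphorylated aspartate in each transport cycle, and are held back by their own tail until calmodulin binds it. NCX proteins let Na+ flow in to drive Ca2+ out and work fast at high Ca2+, and NCKX proteins also carry K+ outward, so that they depend on the sodium and potassium gradients set by the sodium pump. In the hippocampus, neurons use all 3 families to bring Ca2+ down after synaptic activity.

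The members of each family are close relatives, so sequences around the stretch that defines each family are shown for 9 of the 10 genes to make clear what is shared and how far the genes can be told apart. Each is read from the GENCODE M21 transcript with the longest reading frame, 5′ to 3′ on the coding strand, with its position on GRCm38, and each lies within 1 exon of that transcript. In the pumps, capitals mark the codons of the motif aspartate-lysine-threonine-glycine-threonine, whose aspartate takes up the phosphate.
Atp2b1 (chr10:98999799-98999849, plus strand, exon 10 of 21): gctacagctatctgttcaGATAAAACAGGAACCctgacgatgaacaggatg
Atp2b2 (chr6:113789885-113789935, minus strand, exon 13 of 24): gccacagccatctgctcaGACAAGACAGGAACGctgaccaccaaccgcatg
Atp2b4 (chr1:133731795-133731845, minus strand, exon 10 of 21): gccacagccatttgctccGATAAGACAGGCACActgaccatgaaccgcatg

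In the exchangers, capitals mark the codons of glycine, serine or glycine, serine, alanine or threonine, proline and glutamate, a conserved stretch of the repeat that lines the ion path.
Slc8a1 (chr17:81649155-81649208, minus strand, exon 1 of 10): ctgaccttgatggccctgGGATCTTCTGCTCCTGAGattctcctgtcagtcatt
Slc8a2 (chr7:16134235-16134288, plus strand, exon 2 of 10): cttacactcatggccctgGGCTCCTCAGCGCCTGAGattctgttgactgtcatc
Slc8a3 (chr12:81315585-81315638, minus strand, exon 2 of 8): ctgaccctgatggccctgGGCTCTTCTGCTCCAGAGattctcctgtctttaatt
Slc24a2 (chr4:87227231-87227284, minus strand, exon 1 of 10): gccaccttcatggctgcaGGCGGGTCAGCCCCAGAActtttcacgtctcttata
Slc24a3 (chr2:145518432-145518485, plus strand, exon 5 of 17): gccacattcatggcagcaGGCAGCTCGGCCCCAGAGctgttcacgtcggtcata
Slc24a4 (chr12:102222073-102222126, plus strand, exon 5 of 17): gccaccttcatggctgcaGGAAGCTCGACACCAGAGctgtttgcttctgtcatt

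Among the 3 pumps shown, 40 to 44 of these 51 bases were identical in a pair. Among the NCX genes 41 to 48 of 54 bases were identical, among the NCKX genes 40 to 44, and between an NCX and an NCKX gene 29 to 32. Over the whole aligned reading frames, identity was 72.2% to 78.1% in pairs of pumps, 68.5% to 72.3% in pairs of NCX genes and 62.3% to 70.2% in pairs of NCKX genes. The closest pair over the reading frame was Atp2b2 and Atp2b3. None of the windows of 76 bases, the length of a read, in the transcripts of any of the 10 genes occurred in a transcript of another of them, so the members did not share exact read sequences.

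Between 37414241 and 52497799 fragments were counted per library. Orai1 stood at 7.47 ± 0.528 CPM (counts scaled to a common library total) in the wild-type and 320 ± 9.54 CPM in the Tg(ORAI1)Ibd libraries (SD, n = 3 each), and was high in the 3 libraries labelled transgenic. Thy1, whose gene the cassette derives from, rose as well, by 2.66 on the log2 scale. Of 30 choroid plexus markers, 29 were lower in the Tg(ORAI1)Ibd libraries by edgeR's quasi-likelihood test at an adjusted p under 0.05. Their summed level was 4298 to 6520 CPM in the wild-type and 740.1 to 1007 CPM in the transgenic libraries, and no marker was at 0 in a library. All 18 markers of hippocampal pyramidal and granule neurons were detected in every library and summed to 6222 to 6367 CPM in the wild-type and 6348 to 7126 CPM in the transgenic libraries. Of these 1 was higher, the vesicular glutamate transporter gene Slc17a7 (log2 fold change 0.26, adjusted p of 0.0356 in edgeR), and none was lower. Before adjustment 4 of the 18 had a p under 0.05, DESeq2's Wald test called 3, and 3 lay wholly above and 1 wholly below the wild-type libraries.

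Of the 10 members, 3 were lower in the Tg(ORAI1)Ibd hippocampi at an adjusted p under 0.05 with edgeR's quasi-likelihood test: the pump gene Atp2b3, the sodium-calcium exchanger gene Slc8a1 and the potassium-dependent exchanger gene Slc24a2, 1 from each family. Of all genes tested, 4.0% were lower by this rule and 3.10% were higher. No member was higher. The fitted log2 fold change (transgenic against wild-type) was negative for 9 members and positive for Slc8a2, from -0.43 to 0.04, with a median of -0.21 beside -0.01 for all tested genes, of which 51.7% were lower at any p. The 3 transgenic CPM values lay below all 3 wild-type values for 4 members (the 3 above and Atp2b1), above them for none, and overlapped for 6, while 17.9% of all tested genes lay wholly below and 16.9% wholly above. Before adjustment, 6 members had a p under 0.05 in the edgeR fit, all of them lower. Of all tested genes, 14.8% were lower with such a p. For a single gene, the smallest p of an exact two-sided permutation test of 3 against 3 mice is 0.1, so the p-values given here come from fits across all genes.

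The 3 calls lay close to the threshold. Their number was 1 (Slc8a1) with DESeq2's size factors, where 677 of all tested genes were lower beside 764 in the reported fit. It was 4 with DESeq2's Wald test, where Atp2b1 was added and 6.16% of all tested genes were lower, 2 (Slc8a1 and Slc24a2) with limma-voom, where 3.73% were lower, and 0 once the trend of counts on GC content or on gene length was removed from each library. It was also 0 without wild-type mouse 1, wild-type mouse 2, Tg(ORAI1)Ibd mouse 2 or Tg(ORAI1)Ibd mouse 3, 2 without wild-type mouse 3 (Atp2b1 and Atp2b3), and 4 without Tg(ORAI1)Ibd mouse 1. Over all genes, 764 were lower in the fit of all 6 mice. That number was 66, 81, 130 and 89 in the 4 fits with no member called, in the order given, and 635 and 683 in the other two.

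**Figure D1:**
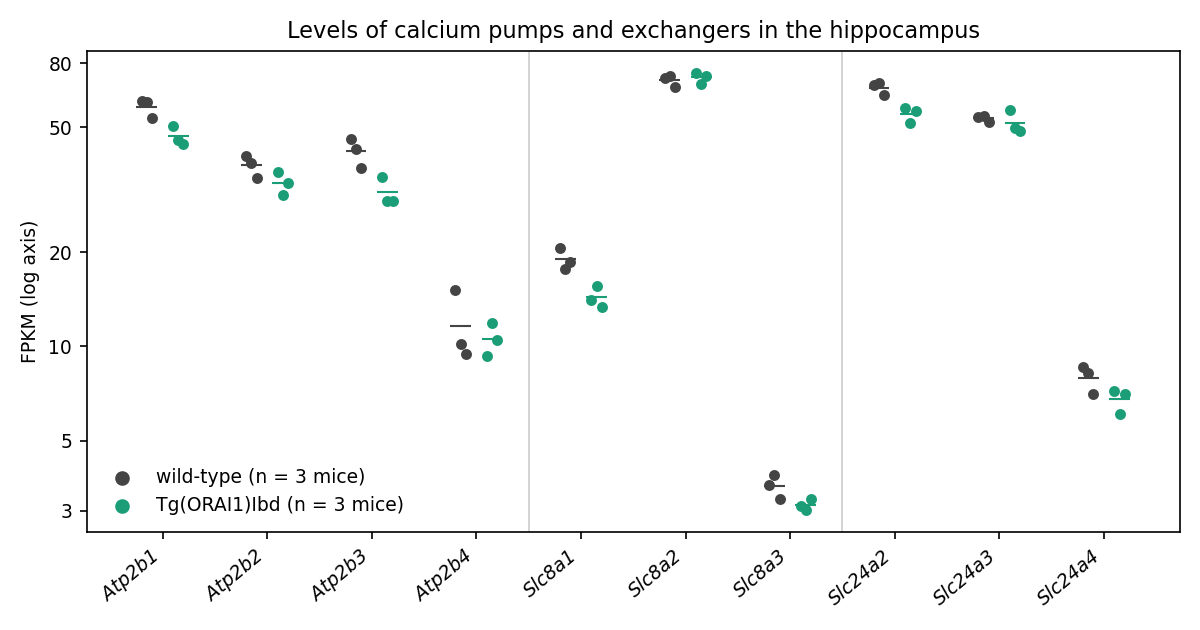
Level of each gene in FPKM (counts scaled to library total and exonic length, log axis) in 3 wild-type (grey) and 3 Tg(ORAI1)Ibd (green) libraries, 1 point per mouse, with the group mean as a bar, and with vertical lines between pumps, NCX and NCKX genes. The points of Atp2b1, Atp2b3, Slc8a1 and Slc24a2 do not overlap between genotypes. Those of Slc8a3 almost touch in FPKM, at 3.272 for the lowest wild-type and 3.268 for the highest transgenic library, and overlap in CPM. Levels run from about 3 FPKM for Slc8a3 to about 70 FPKM for Slc8a2.

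Levels of different genes were compared as FPKM, the counts of a gene scaled to the library total and to its exonic length in kilobases. In the wild-type hippocampus the order from high to low was Slc8a2, Slc24a2, Atp2b1, Slc24a3, Atp2b3, Atp2b2, Slc8a1, Atp2b4, Slc24a4 and Slc8a3. Slc8a2, the exchanger NCX2, stood at 70.5 ± 2.84 FPKM, and Slc24a2, the exchanger NCKX2, at 66.8 ± 3.24 FPKM (SD, n = 3 mice here and below). Atp2b1, the widely expressed pump PMCA1, stood at 58.1 ± 3.90 FPKM. These are abundant transcripts, since Slc8a2 ranked at the 97.4th, Slc24a2 at the 96.7th and Atp2b1 at the 95.9th percentile of all tested genes.

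Slc24a3 (NCKX3) followed with 53.4 ± 1.20 FPKM, then Atp2b3 (PMCA3) with 41.8 ± 4.39 FPKM and Atp2b2 (PMCA2) with 37.8 ± 3.09 FPKM. Slc8a1 (NCX1), the exchanger known best from heart muscle, stood at 19.0 ± 1.48 FPKM, near the 83.8th percentile. Atp2b4 (PMCA4) had 11.6 ± 3.12 FPKM, Slc24a4 (NCKX4) 7.95 ± 0.799 FPKM and Slc8a3 (NCX3) 3.59 ± 0.307 FPKM, the lowest level of the 10, near the middle of all tested genes at the 47.6th percentile. The ranges of the 3 mice overlapped for the neighbours Slc8a2 and Slc24a2, Atp2b1 and Slc24a3, and Atp2b3 and Atp2b2, although in each of these pairs the first gene was the higher in 3 of 3 wild-type libraries. The other 6 neighbouring pairs did not overlap.

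In the Tg(ORAI1)Ibd hippocampus Slc8a2 (72.1 ± 3.03 FPKM) and Slc24a2 (55.1 ± 3.22 FPKM) again led. Slc24a3 (51.7 ± 4.30 FPKM) stood above Atp2b1 (46.8 ± 3.34 FPKM), and Atp2b2 (33.2 ± 2.79 FPKM) above Atp2b3 (31.0 ± 3.33 FPKM), the reverse of the wild-type order in both cases. The ranges of each of these pairs overlapped, although Slc24a3 and Atp2b2 were the higher of their pairs in 3 of 3 transgenic libraries. The 4 genes at the low end kept their order, with Slc8a1 at 14.4 ± 1.16 FPKM, Atp2b4 at 10.6 ± 1.29 FPKM, Slc24a4 at 6.79 ± 0.612 FPKM and Slc8a3 at 3.13 ± 0.131 FPKM.

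Among the pumps, Atp2b3 was lower in the Tg(ORAI1)Ibd hippocampi. Its fitted difference exceeded that of Slc8a1 by less than the SE of either, and the order of the 2 genes turned without wild-type mouse 2 (-0.40 and -0.43) or without Tg(ORAI1)Ibd mouse 2 (-0.36 and -0.44). The gene (ENSMUSG00000031376, chrX:73503086-73571005, plus strand) encodes PMCA3, a pump of brain with a narrower distribution than PMCA1. It was counted at 221.4, 204.8 and 178.2 CPM in the wild-type and at 169.1, 139.6 and 139.9 CPM in the Tg(ORAI1)Ibd libraries. Each transgenic value lay below each wild-type value, although the lowest wild-type and the highest transgenic library were close. The mean fell by 25.8%, from 201.5 ± 21.8 to 149.5 ± 17.0 CPM (SD, n = 3), with a log2 fold change of -0.43 ± 0.10 (SE) and an adjusted p of 0.0484 by edgeR's quasi-likelihood test. This transcript is not among the GC-poor ones, with 53.8% GC beside a median of 49.5% for tested genes, and the genes of its GC decile had a median log2 fold change of 0.08. With GC offsets its log2 fold change was -0.48 and with length offsets -0.40, with adjusted p-values of 0.0675 and 0.0880 in edgeR.

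Atp2b1 (ENSMUSG00000019943, chr10:98914406-99026143, plus strand) encodes PMCA1, the pump that nearly all cells carry. It had 922.9, 916.4 and 812.8 CPM in the wild-type and 776.0, 691.1 and 673.2 CPM in the transgenic libraries. The groups did not overlap, and the means were 884.0 ± 61.8 and 713.4 ± 54.9 CPM (SD, n = 3). The log2 fold change of -0.31 ± 0.08 (SE) did not pass the test, with an adjusted p of 0.0542 by edgeR's quasi-likelihood test. It passed with total-count scaling (0.0465), without the filter on low counts (0.0365) and with DESeq2's Wald test (adjusted p of 0.00497). With GC offsets, for a transcript of 42.6% GC, the log2 fold change was -0.17, and with length offsets -0.15.

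Atp2b2 (ENSMUSG00000030302, chr6:113743831-114042613, minus strand) encodes PMCA2, a fast neuronal pump also needed by hair cells of the inner ear. Its values of 512.0, 484.8 and 432.4 CPM in the wild-type overlapped with the transgenic values of 458.3, 383.5 and 417.1 CPM. Tg(ORAI1)Ibd mouse 1 lay above wild-type mouse 3. The log2 fold change was -0.18 ± 0.09 (SE), with an adjusted p of 0.211 in the edgeR fit. It was -0.10 without Tg(ORAI1)Ibd mouse 2, -0.11 without wild-type mouse 1 and -0.04 with length offsets.

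For Atp2b4 (ENSMUSG00000026463, chr1:133699457-133801041, minus strand), which encodes PMCA4, 1 wild-type library stood apart. The values were 186.6, 124.9 and 115.3 CPM in the wild-type and 114.9, 145.3 and 128.6 CPM in the transgenic libraries. The groups overlapped widely, and the log2 fold change of -0.14 ± 0.18 (SE) had an adjusted p of 0.666 by edgeR's quasi-likelihood test. Without wild-type mouse 1 it was 0.12.

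Among the sodium-calcium exchangers, Slc8a1 was lower and Slc8a2 was not. Slc8a1 (ENSMUSG00000054640, chr17:81373105-81738377, minus strand) encodes NCX1. Its values were 388.7, 333.0 and 348.4 CPM in the wild-type and 267.6, 293.4 and 250.8 CPM in the Tg(ORAI1)Ibd libraries, and the groups stood clear of each other. From 356.7 ± 28.8 to 270.6 ± 21.4 CPM (SD, n = 3), the log2 fold change was -0.40 ± 0.08 (SE), and the adjusted p of 0.0329 by edgeR's quasi-likelihood test was the smallest of the 10 members. Slc8a1 has the lowest GC content of the members, 40.2%, and the genes of its GC decile had a median log2 fold change of -0.18. With GC offsets its log2 fold change was -0.22 (adjusted p of 0.195 in edgeR), and with length offsets -0.23 (0.128).

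Slc8a2 (ENSMUSG00000030376, chr7:16129826-16161063, plus strand) encodes NCX2, an exchanger of neurons and the most abundant of the 10 transcripts per length. It had 377.8, 381.3 and 352.3 CPM in the wild-type and 395.5, 360.8 and 383.3 CPM in the transgenic libraries. The groups overlapped, and this was the member with a positive log2 fold change, 0.04 ± 0.06 (SE), with an adjusted p of 0.714 by edgeR's quasi-likelihood test. Its GC content, 58.5%, was the highest of the members, its GC decile had a median of 0.13, and with GC offsets the sign turned, to -0.06.

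Slc8a3 (ENSMUSG00000079055, chr12:81197915-81333180, minus strand) encodes NCX3, an exchanger of brain and skeletal muscle. It was counted at 19.37, 20.69 and 17.38 CPM in the wild-type and at 16.72, 16.01 and 17.41 CPM in the transgenic libraries. Tg(ORAI1)Ibd mouse 3 and wild-type mouse 3 were almost level, and the remaining values were separate. The log2 fold change was -0.20 ± 0.08 (SE), with an adjusted p of 0.157 in the edgeR fit, and -0.12 without wild-type mouse 2.

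Among the potassium-dependent exchangers, Slc24a2 was lower. The gene (ENSMUSG00000037996, chr4:86983124-87230477, minus strand) encodes NCKX2, a neuronal exchanger. The wild-type libraries held 832.5, 846.3 and 768.8 CPM and the Tg(ORAI1)Ibd libraries 709.8, 627.7 and 685.4 CPM, with no overlap. The means of 815.9 ± 41.4 and 674.3 ± 42.2 CPM (SD, n = 3) gave a log2 fold change of -0.27 ± 0.07 (SE) and an adjusted p of 0.0491 by edgeR's quasi-likelihood test. At 44.0% GC, the genes of its GC decile had a median log2 fold change of -0.08. The log2 fold change was -0.16 with GC offsets and -0.14 with length offsets, with adjusted p-values of 0.312 and 0.270 in edgeR.

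Slc24a3 (ENSMUSG00000063873, chr2:145167754-145642166, plus strand) encodes NCKX3, which is found in brain and in smooth muscle. It had 246.1, 247.6 and 236.5 CPM in the wild-type and 260.3, 227.2 and 221.4 CPM in the transgenic libraries. Tg(ORAI1)Ibd mouse 1 was the highest of all 6 and the other two transgenic mice the lowest. The log2 fold change was -0.04 ± 0.07 (SE), with an adjusted p of 0.720 in the edgeR fit, and turned to 0.01 or 0.02 without Tg(ORAI1)Ibd mouse 2 or 3.

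Slc24a4 (ENSMUSG00000041771, chr12:102128733-102267091, plus strand) encodes NCKX4, known from olfactory neurons and from enamel formation. Its values were 38.96, 37.09 and 31.78 CPM in the wild-type and 32.87, 27.47 and 31.92 CPM in the transgenic libraries. The lowest wild-type library lay below 2 of the 3 transgenic libraries. The log2 fold change of -0.23 ± 0.10 (SE) had an adjusted p of 0.179 by edgeR's quasi-likelihood test, and was -0.13 without Tg(ORAI1)Ibd mouse 2 and -0.15 without wild-type mouse 1.

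**Figure D2:**
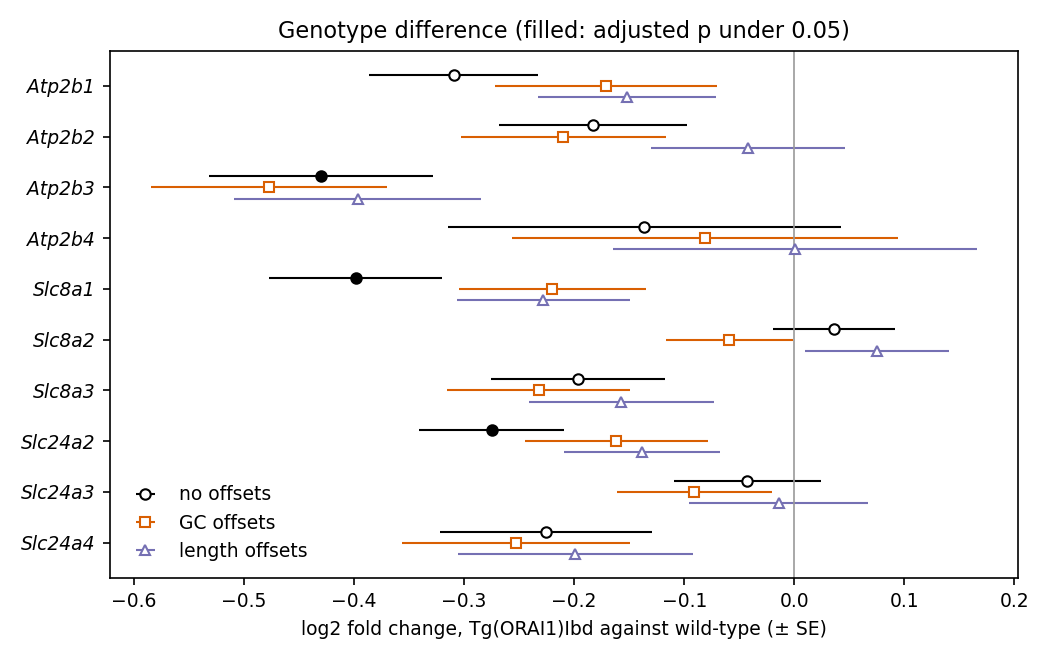
Log2 fold change of each gene, Tg(ORAI1)Ibd against wild-type, with its SE derived from edgeR's F statistic, without offsets (black circles), with GC offsets (orange squares) and with length offsets (violet triangles), where a filled symbol has an adjusted p under 0.05. Filled symbols stand at Atp2b3, Slc8a1 and Slc24a2 without offsets and nowhere with them, and Atp2b3 moves from -0.43 to -0.48 or -0.40.

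The members lay on both sides of the median in GC content, from 40.2% to 58.5%, but all were longer than the median. They had 4.52 to 18.8 kb of exon beside a median of 3.73 kb for tested genes, and spanned 31.2 to 474 kb of the genome. Atp2b3, Slc8a2, Slc8a3, Slc24a3 and Slc24a4 lay in length decile 7, whose genes had a median log2 fold change of -0.007. The other members lay in decile 10, with a median of -0.10. With GC offsets 1.27% and with length offsets 1.77% of all tested genes were lower at an adjusted p under 0.05 in edgeR, so the background fell along with the count of members.

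Across the whole set the same libraries tended to stand at the ends. Wild-type mouse 3 was the lowest wild-type library for 9 of 10 members, all but Slc8a1, and it was so for 39.4% of all tested genes. Tg(ORAI1)Ibd mouse 1 was the highest transgenic library for 7 of 10 members, all but Atp2b4, Slc8a1 and Slc8a3, and for 39.1% of all tested genes. These 2 libraries also stood apart from the rest of their groups in glial markers. The 10 astrocyte markers summed to 5234, 5307 and 7224 CPM in the wild-type and to 5147, 6520 and 6432 CPM in the transgenic libraries, and the 8 microglia markers to 304.6, 324.7 and 420.3 CPM and to 293.1, 453.6 and 438.3 CPM. Wild-type mouse 3 was thus the highest in its group for both lists and Tg(ORAI1)Ibd mouse 1 the lowest. None of the astrocyte or microglia markers passed edgeR's or DESeq2's test between genotypes or was at 0 in a library, and 0 astrocyte markers and 1 microglia marker had an unadjusted p under 0.05 in edgeR.

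**Figure D3:**
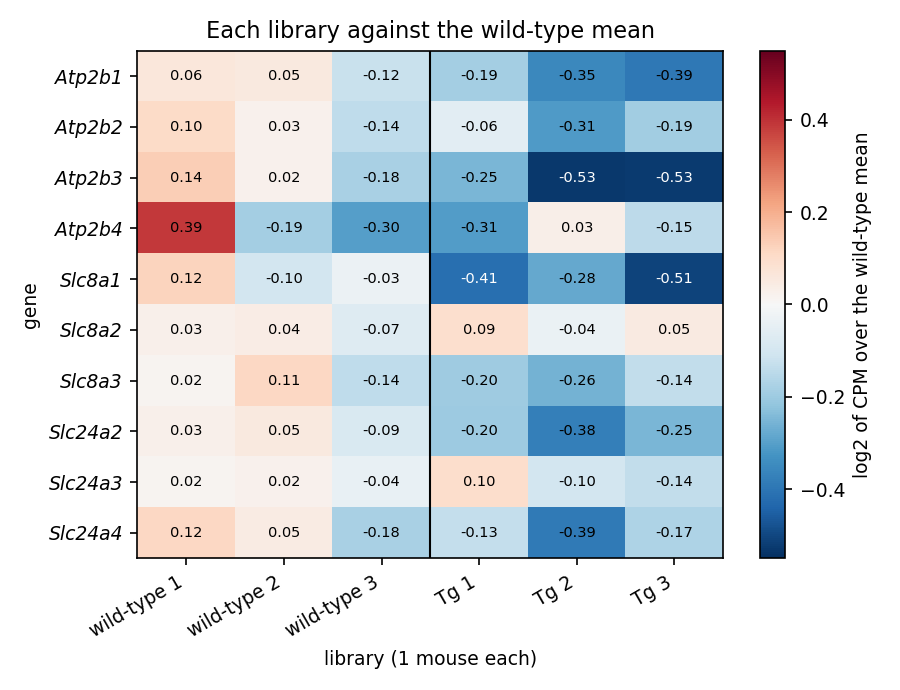
Log2 of the CPM of each gene in each library over the mean of the 3 wild-type libraries, with blue for lower and red for higher and the value written in each cell. Wild-type mouse 3 is negative for all 10 genes, Tg 2 and Tg 3 reach -0.53 for Atp2b3, and the 0.39 of wild-type mouse 1 for Atp2b4 stands alone.

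The choroid plexus markers moved with the genotype as the 3 lower members did, and within the wild-type group mouse 3 was again the lowest, at 4298 CPM beside 6329 and 6520 CPM. The fold was of another size, with a median log2 fold change of -2.30 for the 30 markers. Among 10 interneuron markers, Gad2 and Reln were lower by the same test and the other 8 did not pass, with log2 fold changes from -0.28 (Gad1) and -0.27 (Slc32a1) to 0.23 (Cck). Before adjustment 4 of the 10 had a p under 0.05. The median of the list was -0.05, and its sums of 1137, 1099 and 963.2 CPM in the wild-type and 1079, 901.3 and 857.4 CPM in the transgenic libraries overlapped. Summed levels of 12 oligodendrocyte markers (4766 to 6421 and 6091 to 6721 CPM) and of 11 tested markers of the neighbouring thalamus (278.5 to 316.3 and 208.5 to 292.2 CPM) overlapped between genotypes. No gene of either list passed in edgeR, 4 thalamus and 0 oligodendrocyte markers had an unadjusted p under 0.05, and DESeq2's Wald test called 2 of the thalamus markers and 0 of the oligodendrocyte markers. Those 4 thalamus markers were all lower, with log2 fold changes of -1.01 (Zic1), -0.62 (Slc17a6), -0.31 (Rora) and -0.19 (Plekhg1). In the thalamus list 3 markers lay wholly below and 0 wholly above the wild-type libraries, and the median was 0.02. Of 8 endothelial markers 1 was higher, and their sums were 244.7 to 282.1 and 227.9 to 338.3 CPM. The part that any of these cell types had in the levels of the pumps and exchangers was not tested, and in pieces of whole tissue fewer cells of a type and less RNA per cell cannot be told apart.

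**Figure D4:**
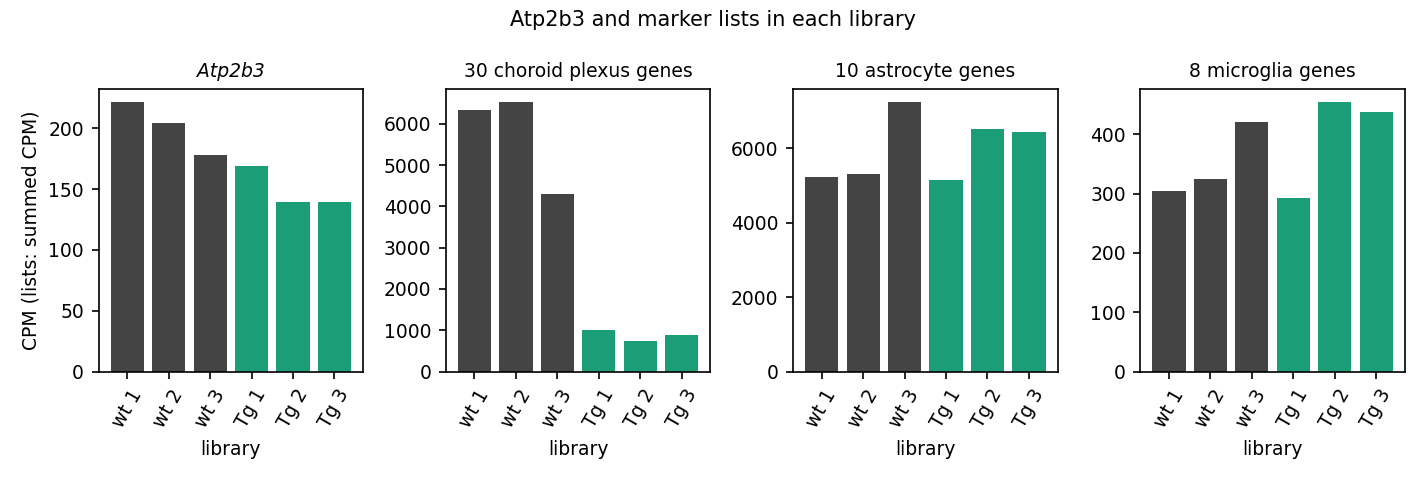
Bars, from 0, of the CPM of Atp2b3 and of the summed CPM of 30 choroid plexus, 10 astrocyte and 8 microglia markers in each of 3 wild-type (grey) and 3 Tg(ORAI1)Ibd (green) libraries. Atp2b3 runs from 221.4 to 139.6 CPM, the choroid plexus sums fall from at least 4298 to at most 1007 CPM, and the glial sums are high in wild-type mouse 3 and in Tg 2 and Tg 3.

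The make-up of each family was described by the share of each gene in the summed FPKM of its family, a quantity that does not depend on the scaling of a library. In a share, a fall of 1 member raises the others, so these values are not independent of those above. For 7 of the 10 genes the shares of the 3 transgenic libraries lay outside the range of the wild-type ones (for 6 where shares were taken of CPM not divided by length). Shares within other gene families were not computed, so this count has no background to be read against.

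Atp2b3 made up 28.3%, 28.1% and 27.6% of the pump transcripts in the wild-type and 26.6%, 24.8% and 24.8% in the Tg(ORAI1)Ibd libraries. Atp2b2 made up 25.0%, 25.4% and 25.6% in the wild-type and 27.6%, 26.1% and 28.3% in the transgenic libraries, so these 2 genes exchanged places within the family. Atp2b1 remained the leading pump, with 39.0% ± 1.43 and 38.5% ± 0.557 (SD, n = 3), and its shares overlapped. The share of Atp2b4 overlapped too and was 6.74% to 9.38% in the wild-type and 7.12% to 10.2% in the transgenic libraries.

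Among the NCX genes, Slc8a2 held 74.7%, 77.1% and 75.5% in the wild-type and 81.2%, 78.7% and 81.4% in the Tg(ORAI1)Ibd libraries. Slc8a1 held 21.5%, 18.8% and 20.9% against 15.4%, 17.9% and 14.9%, lower in each transgenic mouse than in each wild-type mouse. Slc8a3 made up less than 5% throughout, with 3.67% to 4.12% in the wild-type and 3.39% to 3.65% in the transgenic libraries.

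Among the NCKX genes, Slc24a2 held 52.1%, 52.6% and 51.7% in the wild-type and 47.5%, 47.9% and 50.2% in the transgenic libraries. Slc24a3 held 41.3%, 41.2% and 42.6% against 46.6%, 46.4% and 43.4%. In 3 of 3 wild-type and 3 of 3 transgenic libraries Slc24a2 was the larger of the 2, by a smaller margin in the transgenic mice. The share of Slc24a4 overlapped, at 5.77% to 6.59% and 5.67% to 6.32%.

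**Figure D5:**
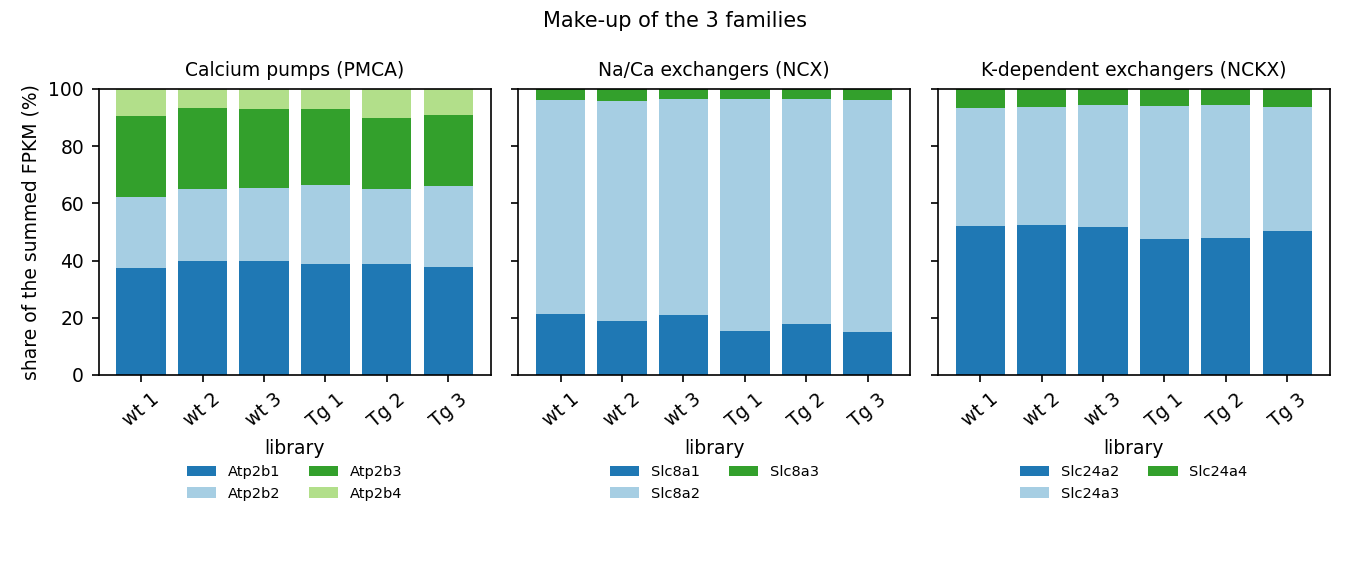
Stacked bars of the share (%) of each gene in the summed FPKM of its family, for pumps, NCX and NCKX genes in 3 wild-type (wt) and 3 Tg(ORAI1)Ibd (Tg) libraries. The Slc8a1 band is narrower in each Tg library (14.9% to 17.9%) than in each wild-type library (18.8% to 21.5%), as is the Atp2b3 band (24.8% to 26.6% beside 27.6% to 28.3%).

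Summed over a family, the pumps had 161.9, 151.5 and 134.6 FPKM in the wild-type and 130.7, 116.8 and 116.9 FPKM in the Tg(ORAI1)Ibd libraries, which did not overlap. The NCX genes summed to 95.8, 94.2 and 89.1 FPKM and to 91.8, 87.3 and 89.5 FPKM, which overlapped. The NCKX genes summed to 130.3, 131.9 and 122.2 FPKM and to 121.4, 107.4 and 111.8 FPKM. These did not overlap when scaled to library totals, though wild-type mouse 3 and Tg(ORAI1)Ibd mouse 1 were less than 1 FPKM apart. For all 10 genes together the means were 370.5 and 324.5 FPKM, a difference of -12.4%. The libraries nearest to each other were wild-type mouse 3 (345.9 FPKM) and Tg(ORAI1)Ibd mouse 1 (343.9 FPKM). FPKM rest on plain library totals, without the TMM factors of the fit, 1.00451 and 0.992397 in these 2 libraries. With those factors the 2 libraries change order in the NCKX sum and in this sum, so neither non-overlap holds there. These sums weight the genes by their levels.

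The 3 genes whose profile over the 6 libraries was most like that of Atp2b3 were Ccser1, Klhl11 and Slc9a7, out of 19086 ranked by the root mean square distance of centred log2 CPM. The distances were 0.026, 0.033 and 0.035, beside 0.25 for the deviation of Atp2b3 from its own mean. Slc9a7, for example, which encodes a sodium-proton exchanger of the Golgi network, had 17.5, 16.4 and 14.8 CPM in the wild-type and 13.9, 11.6 and 11.9 CPM in the transgenic libraries. Of the other members Atp2b1 came nearest, at rank 57 with a distance of 0.079, followed by Slc24a2 at rank 281, Slc24a4 at 430, Atp2b2 at 487 and Slc8a1 at 646. Atp2b4 was the farthest, at rank 8763, and Slc8a2 stood at 6141.

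Genes that act with the pumps and exchangers were looked at from 4 lists. Of 11 partners of the PMCA pumps, which comprise calmodulin genes, the companion subunits neuroplastin and basigin, scaffold proteins and a 14-3-3 protein, none passed the test in either direction in edgeR, and their median log2 fold change was -0.02. Before adjustment 4 had a p under 0.05, and DESeq2's Wald test called 3 and limma-voom 0 of them, where over all tested genes DESeq2 called 1175 lower and 1055 higher and limma-voom 711 lower and 550 higher. The partner with the highest level was the calmodulin gene Calm2, with 1196 ± 38.7 CPM in the wild-type and 1136 ± 6.08 CPM in the transgenic libraries (SD, n = 3), a log2 fold change of -0.07 and an adjusted p of 0.380 in edgeR. Groups stood apart for 7 of the 11, beside 17.9% of all tested genes wholly below and 16.9% wholly above, and these are named because of their values: Nptn, Bsg, Calm2 and Dlg1 lay lower and Calm3, Pdzd11 and Slc9a3r2 higher in each transgenic library. Bsg, which encodes basigin, came closest to the threshold, with 430.7, 454.0 and 426.5 CPM in the wild-type, 364.0, 389.1 and 384.5 CPM in the transgenic libraries and a log2 fold change of -0.20 (adjusted p of 0.0514 in edgeR). Nptn, which encodes neuroplastin, had 533.4, 534.4 and 512.0 CPM and 456.7, 486.0 and 482.9 CPM, with -0.15 (adjusted p of 0.0986 in edgeR).

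The sodium pump keeps the gradient on which NCX and NCKX proteins run. Of 11 tested genes for its subunits and its FXYD regulators, 1 was higher and none lower, with a median log2 fold change of 0.02. The gene that rose was Fxyd6, a small regulatory subunit of the pump in brain, with 64.2, 59.5 and 63.1 CPM in the wild-type and 73.9, 81.7 and 71.7 CPM in the Tg(ORAI1)Ibd libraries. Its log2 fold change was 0.28 ± 0.06 (SE), with an adjusted p of 0.0406 by edgeR's quasi-likelihood test, and it also passed with GC offsets (0.0430) and length offsets (0.0457). When mice were left out in turn it passed without Tg(ORAI1)Ibd mouse 1 and not without any of the other 5. Atp1b1, the beta subunit with the highest level in the list, had a log2 fold change of -0.17 with an adjusted p of 0.104 in edgeR and 0.0118 in DESeq2's Wald test, and its groups did not overlap.

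Of 10 other calcium transporters, in inner membranes or of the same families, 2 were lower and none higher, with a median of -0.18. Both are low-level relatives of the NCKX members. Slc24a1, the exchanger of rod photoreceptors, had 90, 69 and 52 counts in the wild-type and 11, 7 and 4 counts in the transgenic libraries, or 1.58 ± 0.180 and 0.175 ± 0.0649 CPM (SD, n = 3). Its log2 fold change of -3.12 ± 0.27 (SE) had an adjusted p of 0.00256 by edgeR's quasi-likelihood test and passed without each mouse in turn, and the median of the choroid plexus markers was -2.30. What part those cells had in its level was not tested. Slc24a5, an exchanger of pigment cells that works inside the cell, had 69, 72 and 101 counts and 31, 23 and 32 counts, with a log2 fold change of -1.41 ± 0.30 (SE) and an adjusted p of 0.0387 in edgeR. It did not pass when any 1 mouse was left out (0.0521 to 0.123).

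The endoplasmic reticulum pump gene Atp2a2 had the highest level of this list, with 927.1, 864.0 and 776.2 CPM in the wild-type and 758.5, 707.2 and 689.2 CPM in the transgenic libraries. The groups did not overlap, but the log2 fold change of -0.25 ± 0.08 (SE) did not pass, with an adjusted p of 0.0827 by edgeR's quasi-likelihood test. It passed DESeq2's Wald test (adjusted p of 0.0250). DESeq2 called 3 and limma-voom 1 of the genes of this list. The remaining gene of the list without overlap was Atp2c1, a calcium pump of the Golgi, with -0.21 and an adjusted p of 0.110 in edgeR.

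Cytosolic Ca2+-binding proteins take up Ca2+ before the pumps and exchangers remove it. None of 7 such genes passed the test in edgeR, DESeq2 or limma-voom, 1 had an unadjusted p under 0.05 in edgeR, all 7 overlapped between genotypes, and their median log2 fold change was 0.06. The gene with the highest level, Hpca, which encodes the hippocampal Ca2+ sensor hippocalcin, had 1329 ± 151 CPM in the wild-type and 1388 ± 178 CPM in the transgenic libraries (SD, n = 3), with a log2 fold change of 0.06 and an adjusted p of 0.757 in edgeR.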

How the data were processed

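For each genotype, total RNA came from 3 hippocampi taken singly. PolyA RNA was sequenced in 6 libraries, which were assigned to 3 wild-type and 3 Tg(ORAI1)Ibd mice by their labels. The authors trimmed reads with Trimmomatic, aligned them to mm10 with STAR and deposited raw fragment counts per gene. Per the file headers, featureCounts 1.5.0-p1 counted read pairs on the Ensembl 95 annotation with reverse strand, primary alignments and a minimum mapping quality. The table also gives exonic gene length in bp, and all 6 count columns were used.

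Here genes were kept by filterByExpr (minimum count 10), scaled by TMM and compared by edgeR's quasi-likelihood test without covariates, with Benjamini-Hochberg adjustment over 19087 genes and a threshold of 0.05. The SE of a log2 fold change was derived as its absolute value divided by the square root of the F statistic of that test. CPM are relative to the TMM-scaled total, and FPKM use the deposited lengths and plain library totals. The study's own test, NOISeq, was not repeated. Members, gene lists and tests were chosen with earlier results of these data known. All members were named, and from each of the 4 pathway lists the genes that passed (at most 4) and the gene with the highest FPKM. Marker genes, and genes named for their non-overlap, were picked with their values in view.

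Other scalings, filters and tests, a replicate block, each mouse left out, and offsets from loess trends (span 0.5) of log2 CPM on GC content of the longest transcript or on length were tried. The fits were tested on simulated data. Reading frames (ATG to stop, the longest) were aligned with Biopython 1.88, and identity between proteins was not analysed here. One sequence stretch is not reported here. Fits were run in R 4.3.3 with edgeR 4.0.16, DESeq2 1.42.0 and limma 3.58.1, and tables and plots were made in Python 3.11.15 with matplotlib 3.10.9, pandas 2.3.3 and numpy 2.4.6. Intervals between mice rest on 3 animals per group, and library totals of 37414241 to 52497799 gave 611 to 48304 counts per member and library.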

Additional observations from a re-analysis of the deposited data

How the results depend on the processing

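The number of members lower at the threshold was 3 in the reported fit, 1 with DESeq2's size factors (of 677 lower genes in all), 1 with a filter of 10 counts in every library (of 669), 0 with GC offsets (of 243), 1 (Atp2b3) with GC offsets and the replicate block together (of 323), 0 with length offsets (of 338), and 0 to 4 when 1 mouse was left out, where 66 to 683 of all genes were lower beside 764 in the reported fit. The cause was not tested. The number of members was 4 with total counts (of 790), 3 with the upper quartile (of 789), 4 with no filter (of 873), 4 with DESeq2's Wald test (of 1175) and 2 with limma-voom (of 711), and no member was higher in any of these fits. The sign turned for Atp2b4 with length offsets (0.00081) and without wild-type mouse 1 (0.12, with -0.26 to 0.12 over all mice left out in turn), for Slc8a2 with GC offsets (-0.059, and -0.059 with the block), for Slc24a3 without Tg(ORAI1)Ibd mouse 2 (0.010) or 3 (0.024, with -0.12 to 0.024 over all mice), for Calm2 with GC offsets (0.058, and 0.057 with the block), and for Hpca with GC offsets (-0.025, and -0.026 with the block) and without Tg(ORAI1)Ibd mouse 1 (-0.043, with -0.043 to 0.18 over all mice). The median of all tested genes moved by less than 0.1 on the log2 scale under every scaling.

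Mice of both genotypes carry the numbers 1 to 3, but are different animals. Mice with the same number deviated from the means of their groups with correlations of 0.399, -0.357 and 0.388 over 11191 genes. Deviations from the mean of 3 mice are tied to each other, so these correlations cannot decide whether the numbers pair the samples. With the replicate block 475 genes were lower, among them 3 members (Atp2b1, Atp2b3 and Slc8a1), and the adjusted p in edgeR was 0.0708 for Slc24a2 and 0.0673 for Fxyd6, which both passed without it. Wild-type mouse 3 correlated best with Tg(ORAI1)Ibd mouse 2 (0.536). The members had at least 611 counts per library, while the counts of 4 to 11 of Slc24a1 in the transgenic mice are imprecise.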
